A study of Mus musculus with 167 samples.

Results

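Whether liver microRNA precursors change in steps as the CAG repeat of an already expanded Htt allele grows was examined in 40 liver libraries from 2-month-old mice. The members were chosen by their titles alone: the heterozygous livers labelled Q80, Q92, Q111, Q140 and Q175 at 2 months, 8 per allele, out of 167 liver libraries in the series, with Q20 and wild type (WT) livers left out of the fit. Each mouse was labelled C57BL/6, kept 1 wild-type Htt allele and carried on the other a knock-in of human HTT exon 1, so all 40 share the knock-in and none is a control. The Q92 and Q111 alleles are Htt tm4Mem and Htt tm5Mem, Q80 is Htt tm1.1Pfs and Q140 is Htt tm1Mfc, while Q175 arose by spontaneous expansion within the Q140 line. Repeat length is therefore tied to line of origin, and the labels give each line as housed with heterozygotes of its own repeat length, so that length, line and housing cannot be told apart. Groups held 4 females and 4 males each, except Q80, labelled as 3 females and 5 males.

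Huntingtin with a long CAG repeat carries a long polyglutamine stretch, the cause of Huntington's disease. A microRNA is cut from a hairpin precursor into a mature strand, and bases 2 to 8 of that strand, the seed, pair with target messenger RNAs and lower their output. In liver a handful of microRNAs made by hepatocytes, such as Mir122 and Mir192, account for a large share of all microRNA, while others mark blood, vessel wall, stellate and bile duct cells. The counts here are per precursor, so the arm that was sequenced is not given.

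The mature strands below, from RefSeq on GRCm38.p6, are those of the precursors on which the results turn. Capitals mark the seed and sequences run 5′ to 3′. The first pair is shown because both strands share a seed and differ by 1 base, written U12A from miR-10a-5p to miR-10b-5p, counted from 1 at the 5′ end.
miR-10b-5p: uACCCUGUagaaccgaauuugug
miR-10a-5p: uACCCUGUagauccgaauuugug
miR-31-5p: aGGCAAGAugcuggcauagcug
miR-27b-3p: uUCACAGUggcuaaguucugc
miR-199b-3p: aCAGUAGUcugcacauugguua
miR-193b-3p: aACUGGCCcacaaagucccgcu
miR-19b-3p: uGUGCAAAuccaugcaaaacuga
miR-132-3p: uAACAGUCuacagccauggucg
miR-224-5p: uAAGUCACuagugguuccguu
miR-5126: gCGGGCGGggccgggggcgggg
miR-1928: aGCUACAUugccagcuc

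Mir10b lies on chromosome 2 at 74726070 to 74726137 on the plus strand (mm10, GENCODE M21), inside introns of Hoxd3 and Hoxd4. Its near copy Mir10a is on chromosome 11, with the mature strand at 96317186 to 96317208. Mir31 lies on chromosome 4 at 88910557 to 88910662 on the minus strand, within an exon of the noncoding gene AL805899.1. Mir27b lies on chromosome 13 at 63300712 to 63300784 on the plus strand, in an exon of 2010111I01Rik.

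Total counts per library ranged from 2.01 M to 4.35 M (mean 3.14 ± 0.645 M, SD, n = 40, M for 1e6 counts). They were lower at longer repeats, with a Pearson r of -0.39 (permutation p = 0.0117, adjusted 0.0234) and a Spearman rho of -0.34 (permutation p = 0.0303, adjusted 0.0303), both 2-sided with 100000 resamples. Without the 2 totals farthest from the median, r was -0.37 (permutation p = 0.0243) and rho -0.31 (permutation p = 0.0566). Without Q80 M1, rho was -0.30 (permutation p = 0.0633). The column names carry an L code, L1, L3, L4 or L5 in these libraries, whose meaning is not spelled out and which was used as a batch. Within codes r was -0.35 and rho -0.38 in L3 (n = 10), -0.41 and -0.12 in L4 (n = 13), and -0.53 and -0.53 in L5 (n = 15). No pair of libraries of 1 group agreed within sampling noise, the smallest of 140 chi-square values per degree of freedom being 37.3. The library labelled Q80 M1 carries in its name the code of the female samples. Its summed count for the Fx-mir cluster, a group of X-linked precursors, was 1.38 CPM (counts scaled to a library total of 1e6), inside the female range of 0.772 to 4.8 and outside the 6.52 to 39.7 of the other 20 males. The libraries Q80 M2 and Q140 F2 had the highest sums of 6 mesenchymal precursors, 42900 and 47700 CPM against at most 26800 in the other 38, and Q80 F2 had the highest sum of 8 white blood cell precursors, 4260 CPM. Results were therefore also fitted without Q80 M1, and without Q80 F2, Q80 M2 and Q140 F2.

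No precursor changed with repeat length at an adjusted p under 0.05 by the quasi-likelihood F test of edgeR, with p adjusted after Benjamini and Hochberg. Of 298 precursors tested, 0 were called (0%), and the smallest adjusted p was 0.0676. At an unadjusted p under 0.05 there were 50 (16.8%), 32 with a slope above 0 (10.7%) and 18 with a slope below 0 (6.04%). DESeq2 on the same design called 6: Mir27b, Mir5126 and Mir1928 with slopes above 0, Mir10b, Mir199b and Mir19b-2 with slopes below. A slope here is the fitted log2 change per 100 CAG repeats, and the median slope over all 298 was -0.02. The count at an unadjusted p under 0.05 was 12 of 292 without the Q175 livers and 8 of 298 with a term for the shared origin of Q140 and Q175. Without the Q80 livers it was 32 of 291, and that fit called 2, Mir187 and Mir199b, both with slopes below 0. The median standard error of a slope was 0.17, and 231 of the 298 slopes had an error under 0.3.

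The count of 0 stood close to the threshold. Leaving out 1 library at a time kept it at 0 for 33 of 40 libraries. It became 21 without Q92 F1, 19 without Q80 M4, 17 without Q92 M2, 6 without Q175 M1, 3 without Q92 F3, 2 without Q92 M3 and 1 without Q92 M4. It was 0 without Q80 M1 and 0 without Q80 F2, Q80 M2 and Q140 F2. Sex did not separate the slopes at the threshold: 0 of 298 were called for a slope that differed between males and females by edgeR (0%), 9 at an unadjusted p under 0.05, and DESeq2 called 0.

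Differences among the alleles in any order were found for a pair of precursors. A test of any difference among the 5 alleles called 2 of 298 (0.671%), Mir10b (adjusted p = 0.000105) and Mir31 (adjusted p = 0.00642), with 36 at an unadjusted p under 0.05 (12.1%). Both also departed from a straight line in CAG length, with adjusted p = 0.00518 for Mir10b and 0.00941 for Mir31, and no other precursor did (0.671% called, with 17 at an unadjusted p under 0.05, 5.7%). DESeq2 called 19 for any difference and 2 for departure, Mir10b and Mir31.

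Mir10b, which sits in the Hoxd cluster and belongs to the same family as the far more abundant Mir10a, had the smallest p in the test of any difference. In Q80 livers its level ran from 756 to 2140 CPM with a median of 1250. In Q92 livers it ran from 184 to 621 with a median of 433, so that no Q92 liver reached the lowest Q80 liver. In Q111 livers the range was 496 to 1120 CPM, with a median of 925. The Q140 livers spread widest, from 201 to 2560 CPM around a median of 832, and overlapped every other allele. In Q175 livers the range was 177 to 518 CPM with a median of 260, again below every Q80 liver. The order of the medians was thus Q80, Q111, Q140, Q92, Q175, and not the order of repeat length, while its fitted slope was -1.57 ± 0.43 (unadjusted p = 0.000907, adjusted p = 0.0676).

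Mir10b fell from Q80 to Q92 by 1.95 ± 0.33 on the log2 scale (SE, adjusted p = 0.000398). From Q92 to Q111 it was higher by 1.29 ± 0.33, which missed the threshold (adjusted p = 0.0594; DESeq2 called it). The Q111 to Q140 difference was -0.19 ± 0.37, with a 95% interval from -0.92 to 0.54. From Q140 to Q175 the difference was -1.28 ± 0.40 with an unadjusted p of 0.00295 and an adjusted p of 0.44. Between the ends of the range, Mir10b fell by 2.12 ± 0.33 from Q80 to Q175 (adjusted p = 8.05e-05), and all 8 Q175 livers were below every Q80 liver. The call held without each of the 40 libraries in turn, and was -1.76 without Q80 F2, Q80 M2 and Q140 F2 (adjusted p = 0.00155).

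The level of Mir10b in livers without an expanded allele spanned much of the same range at 2 months. WT livers ran from 472 to 2210 CPM (median 764, n = 8) and Q20 livers from 425 to 1300 (median 771, n = 8). Mir10a did not share the pattern. Its medians lay between 31100 and 36300 CPM in the 5 alleles and its slope was 0.12 ± 0.12 (adjusted p = 0.648). With 36-base reads, a read of the 1 strand with an error at position 12 matches the other, so that a part of the Mir10b count could come from Mir10a, which was not tested. Mir10b counts were whole numbers in all 40 libraries, and those of Mir10a were fractional in 7. The plot of both precursors by library shows the lack of overlap between Q80 and Q175 for Mir10b alone.

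**Figure D1:**
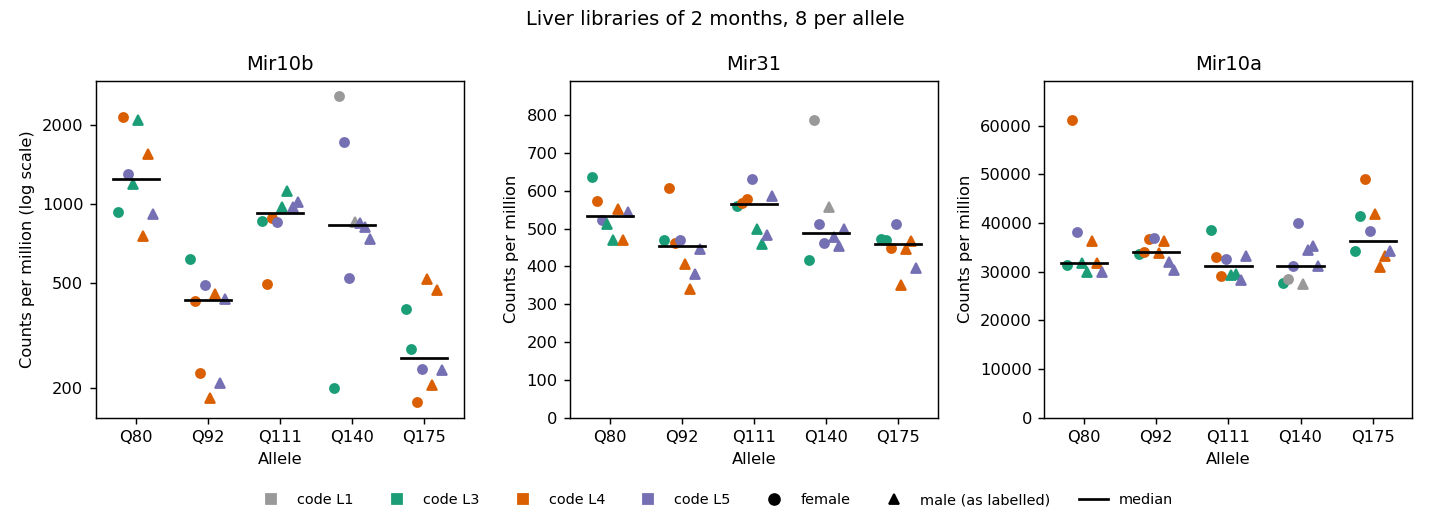
Level of Mir10b (log axis), Mir31 and Mir10a in CPM (linear axes from 0) in the 40 libraries, by allele; each point is 1 library, coloured by L code and shaped by sex, and the bar is the median of 8. Mir10b medians were 1250, 433, 925, 832 and 260 CPM from Q80 to Q175.

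Mir31, known chiefly from epithelial cells, showed a smaller dip at Q92. Its level ran from 469 to 637 CPM in Q80 (median 534), from 339 to 607 in Q92 (median 454) and from 460 to 630 in Q111 (median 564). In Q140 it ran from 418 to 787 (median 488) and in Q175 from 350 to 511 (median 459). All these ranges overlap. Mir31 fell by 0.40 ± 0.08 on the log2 scale from Q80 to Q92 (adjusted p = 0.00363) and rose by 0.37 ± 0.08 from Q92 to Q111 (adjusted p = 0.0208). These calls were lost without the term for the L code: the adjusted p values were then 0.0521 and 0.111. The second step was called in 24 of 40 fits that left out 1 library. Without the filter on low counts, Mir31 was not called for any difference, for departure or for either step. With a block for replicate number it kept only the Q80 to Q92 call. Its straight-line slope was -0.18 ± 0.10 (adjusted p = 0.364).

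From Q80 to Q92 edgeR called 2 of 298 (0.671%), Mir10b and Mir31, both lower, and 46 had an unadjusted p under 0.05 (15.4%), 10 higher and 36 lower. From Q92 to Q111 it called 1 (0.336%), Mir31, with 23 at an unadjusted p under 0.05 (7.72%). From Q111 to Q140 edgeR called 0 (0%) with 20 at an unadjusted p under 0.05 (6.71%), and from Q140 to Q175 it called 0 (0%) with 3 (1.01%). DESeq2 called 3, 2, 0 and 0 in the 4 steps. The median absolute log2 step over all tested precursors was 0.17, 0.12, 0.14 and 0.11 in turn. The steps share their middle alleles: a low Q92 group gives a fall and then a rise.

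Few precursors climbed or fell through every allele. The fitted level was higher at each of the 4 steps for 4 of 298 (1.34%), namely Mir320, Mir671 and the unnamed precursors ENSMUST00000175045 and ENSMUST00000176380. It was lower at each step for another 4, Mir145a, Mir181a-1, Mir200a and Gm27509. The other 290 changed direction at least once. None of the 8 was called in the trend. Mir320 had a slope of 0.23 ± 0.08 (adjusted p = 0.108), with medians of 178, 193, 185, 207 and 201 CPM from Q80 to Q175. Mir181a-1, known from lymphocyte development, had a slope of -0.40 ± 0.13 (adjusted p = 0.0695) and medians of 170, 190, 158, 148 and 138 CPM.

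**Figure D2:**
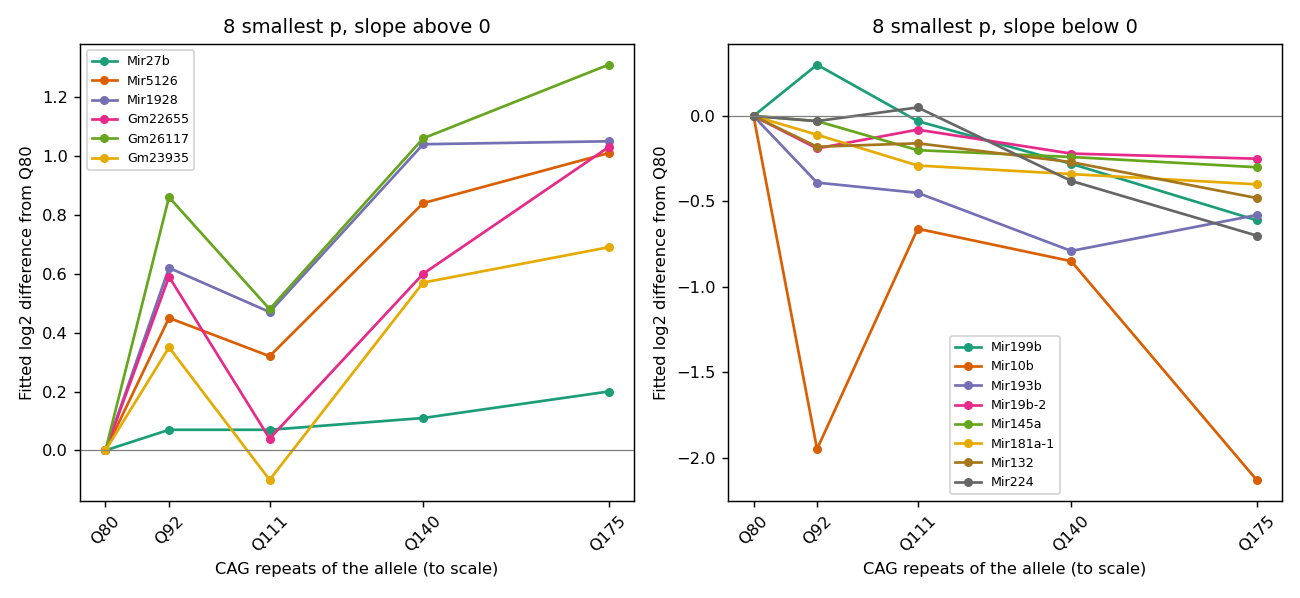
Fitted log2 difference from Q80 at each allele (vertical axis) against CAG repeats (horizontal axis, to scale) for the precursors with the 8 smallest trend p values in each direction; Gm23935 stands also for 2 identical copies. Mir10b drops at Q92 and Q175, and 5 of the 6 lines above 0 rise at Q92, dip at Q111 and rise again. Over all 298 tested precursors the steps ran higher, lower, higher, higher in 33 (11.1%) and higher, lower, higher, lower in 38 (12.8%). Among the 32 with a slope above 0 and an unadjusted p under 0.05 these counts were 19 (59.4%) and 6 (18.8%), identical copies included. The 32 were picked by a slope fitted to the same libraries, which favours higher steps in advance, so these shares are not a test.

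The 8 precursors with the smallest p and a slope above 0, none of them called, were Mir27b, Mir5126, Mir1928, Gm22655, Gm26117 and the identical trio Gm23935, Gm24245 and Gm24270. The trio has 1 sequence of 57 bases and the same counts, and is a single measurement. Mir27b, which targets genes of lipid metabolism in liver, had the smallest p (slope 0.19 ± 0.05, unadjusted p = 0.000423, adjusted p = 0.0676). It ran from 18100 to 25600 CPM in Q80 (median 21800), from 20500 to 27300 in Q92 (median 23600) and from 19500 to 26900 in Q111 (median 21800). In Q140 it ran from 19200 to 26900 (median 21600) and in Q175 from 22800 to 28300 (median 24100). The ranges overlap throughout, while all 8 Q175 livers lay above the Q80 median. Mir27b was picked by its p, and such placement was not counted over all tested precursors. Its slope was 0.16, 0.17 and 0.24 within codes L3, L4 and L5. Its counts were fractional in all 40 libraries, which leaves reads shared with other precursors. Mir27a, with the same seed, had a slope of 0.00 ± 0.07, and Mir23b, from the same primary transcript as Mir27b, had -0.10 ± 0.08.

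Mir5126, annotated on chromosome 1 at 84695839 to 84695915 opposite an exon of Dner, has a GC content of 83.1% and counts of 11 to 66 per library. Its median went from 6.66 CPM in Q80 to 11.8, 8.82, 12.5 and 13.5 CPM in the longer alleles (slope 0.97 ± 0.26, adjusted p = 0.0676). Mir1928 had medians of 333, 379, 403, 500 and 557 CPM (slope 0.92 ± 0.27, adjusted p = 0.0695). It shares a seed with Mir221 and Mir222, whose slopes were 0.04 and -0.01. Gm22655, in an intron of Anapc15 on chromosome 7, shares a run of 20 bases with transcripts of 1354 other genes, and its counts of 6 to 36 per library (slope 0.86 ± 0.27) could come from elsewhere. Gm26117 has a GC content of 91.6% and counts of 4 to 53 (slope 1.04 ± 0.32).

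Total counts also moved with repeat length, and the part of depth in these slopes was not tested. GC content, over the 25 of the 32 precursors with a slope above 0 and an unadjusted p under 0.05 that had a sequence, had a median of 57.4%, against 50.6% over 272 of the 298, with the identical trio counted 3 times. No mature strand stood under the symbol in RefSeq for 20 of these 32 (62.5%), against 77 of the 298 (25.8%). For slopes below 0 at the same unadjusted p it was 3 of 18 (16.7%). Mir122 is among the 77, so the match by symbol misses some microRNAs.

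**Figure D3:**
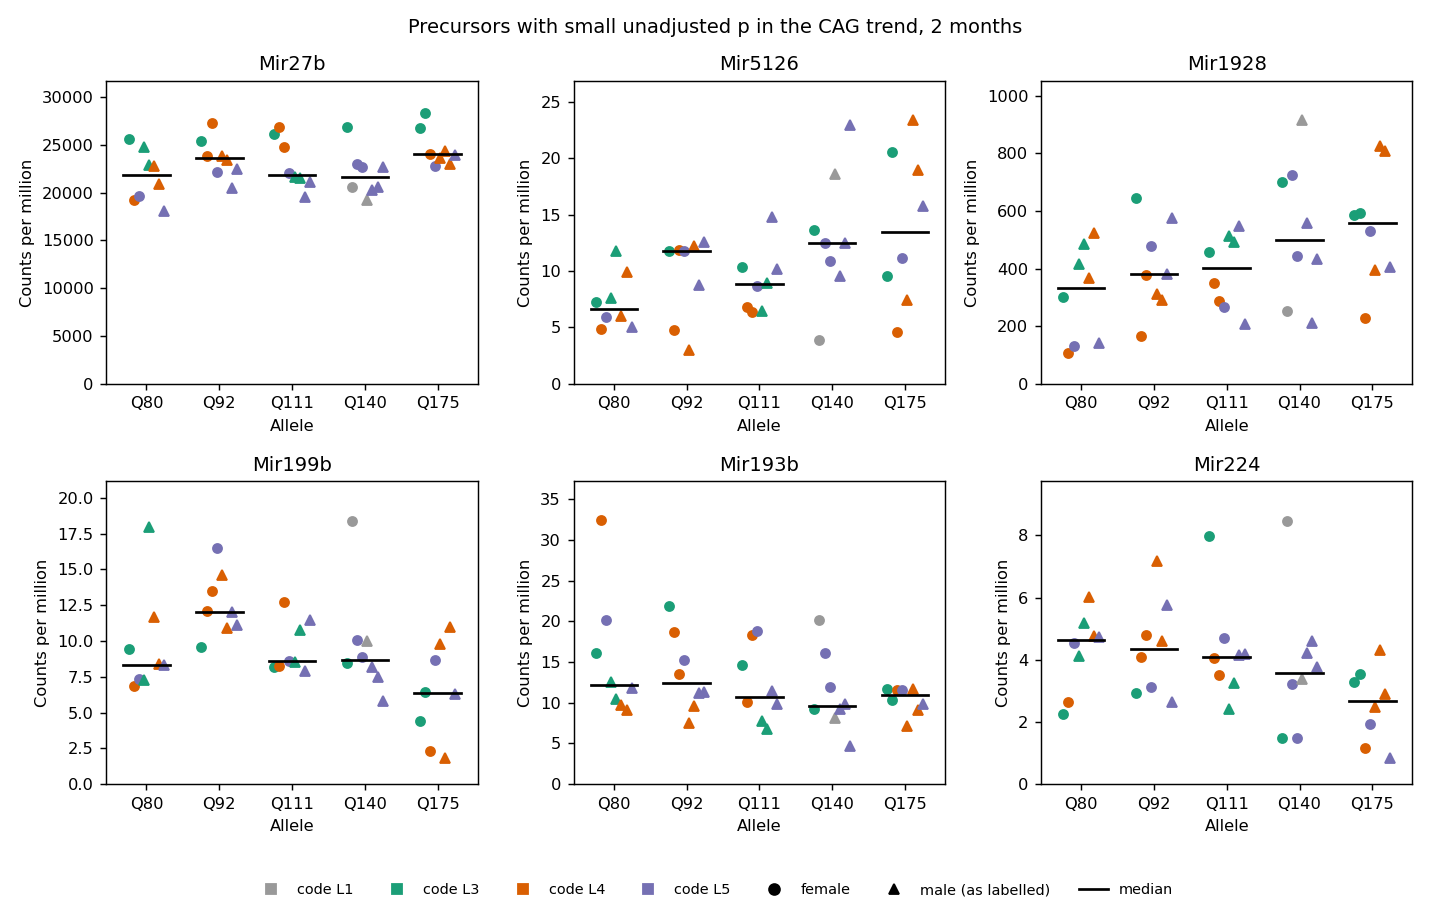
Level in CPM (linear axes from 0) of 6 of the precursors with small unadjusted p in the trend, by allele, 1 point per library, with colour for L code, shape for sex and a bar for the median of 8. The alleles overlap in every panel; Mir5126 medians go from 6.66 to 13.5 CPM and Mir224 medians from 4.64 to 2.69 CPM.

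The 8 with the smallest p and a slope below 0, again not called, were Mir199b, Mir10b, Mir193b, Mir19b-2, Mir145a, Mir181a-1, Mir132 and Mir224. Mir199b, a marker of stellate and other mesenchymal cells, had medians of 8.34, 12.1, 8.58, 8.67 and 6.34 CPM (slope -0.83 ± 0.23, adjusted p = 0.0676). For Mir199b 5 of 8 Q175 livers were below the Q80 median and 3 above it. It shares its mature strand with Mir199a-1 and Mir199a-2, and reads of the shared strand cannot be assigned to 1 of the 3; their slopes were -0.17 and -0.29. Mir193b had medians of 12.2, 12.4, 10.8, 9.56 and 10.9 CPM (slope -0.56 ± 0.18, adjusted p = 0.0695), and all 8 Q175 livers were below the Q80 median. Mir132, induced by neuronal activity and tied by the study to brain, had a slope of -0.43 ± 0.14 (adjusted p = 0.0695) that was -0.67, -0.41 and 0.04 within codes L3, L4 and L5. Its neighbour Mir212, with the same seed, had a slope of -0.08. Mir224, in an intron of Gabre on the X chromosome, ran from 2.27 to 6.02 CPM in Q80 and from 0.854 to 4.33 in Q175 (slope -0.78 ± 0.28, adjusted p = 0.108). Mir19b-2, of an oncogenic cluster on the X chromosome, had a slope of -0.22 ± 0.07 (adjusted p = 0.0695).

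Comparing only the ends of the range gave more calls, in a contrast that was added after values had been seen. Between Q175 and Q80, edgeR called 9 of 298 (3.02%), with 58 at an unadjusted p under 0.05 (19.5%). Higher in Q175 were Mir27b by 0.20 ± 0.05, Mir5126 by 1.02 ± 0.29, Mir1928 by 1.05 ± 0.29, Gm22655 by 1.03 ± 0.28 and Gm26117 by 1.30 ± 0.35 on the log2 scale. Lower in Q175 were Mir10b, Mir19b-2 by -0.26 ± 0.07, Mir31 by -0.28 ± 0.08 and Mir324 by -0.53 ± 0.15. All but Mir10b had an adjusted p of 0.0397. The count was 1, Mir10b, without Q80 F2, Q80 M2 and Q140 F2, and 2 without Q80 M1. It ran from 1 to 24 over the fits that left out 1 library and moved by over 1.5 times in 25 of them.

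Lists of precursors for cell types and pathways, chosen with earlier results of these data known, had no called member in the trend. The hepatocyte list had 5 of 9 slopes above 0 and a median slope of 0.03, with summed medians between 586000 and 597000 CPM in all 5 alleles. Mir122, the liver's defining microRNA, was at medians of 24700 to 27000 CPM (slope 0.03 ± 0.10). These medians were below those of Mir10a given above, and the reason was not tested. The let-7 family, broad inhibitors of growth, had 4 of 10 slopes above 0 and a median of -0.01. The lipid and glucose list had 4 of 12 above 0, with Mir27b the member at an unadjusted p under 0.05. Among those the study named for brain, 5 of 13 slopes were above 0, and Mir10b was called in the test of any difference.

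Blood and stromal lists leaned to 1 side, against 137 of 298 slopes above 0 over all precursors. The red blood cell precursors Mir144, Mir451a and Mir486 had slopes of 0.52 ± 0.22, 0.45 ± 0.19 and 0.52 ± 0.24, each at an unadjusted p under 0.05 and with adjusted p of 0.196, 0.198 and 0.254. Mir451a ran from 534 to 1590 CPM in Q80 (median 816) and from 845 to 2200 in Q175 (median 1260). The summed red cell level had medians of 5100, 7160, 6400, 7830 and 8040 CPM, with overlapping ranges, and 3320 to 12000 in Q92 alone. Mir144 and Mir451a come from 1 primary transcript and are not independent. All 8 white blood cell precursors had slopes below 0 (median -0.22), and all 6 mesenchymal precursors did (median -0.23). Of the bile duct and epithelial list, 9 of 10 were below 0 (median -0.41), with Mir96 at an unadjusted p under 0.05 (slope -0.62 ± 0.30, adjusted p = 0.259). In the mesenchymal list Mir199b, Mir199a-1 and Mir199a-2 share a mature strand and are not independent. Other members of a list may share a transcript too, so these are not counts of independent measurements.

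These counts moved without the 3 libraries that stood apart. Without Q80 F2, Q80 M2 and Q140 F2, 6 of 8 white blood cell slopes, 6 of 6 mesenchymal slopes (median -0.19) and 8 of 10 epithelial slopes (median -0.16) were below 0. All 3 red cell slopes stayed above 0 (median 0.45), with none at an unadjusted p under 0.05. All 10 tested precursors of the imprinted Dlk1-Dio3 cluster, made from 1 maternal transcript, had slopes above 0 in both fits (medians 0.24 and 0.20), Mir376c with 0.75 ± 0.34 (adjusted p = 0.239). In bulk liver, more cells of a type and more RNA per cell cannot be told apart. Many members of the remaining lists did not pass the filter, with 1 of 7 striated muscle, 5 of 10 neural and endocrine and 3 of 17 Fx-mir precursors tested. Their summed levels had medians of 5.55 to 16.2, 60 to 87.6 and 5.45 to 11 CPM over the alleles. Their median slopes were -0.25, -0.09 and -0.08 (0.45, 0.01 and -0.04 without the 3 libraries). The endothelial Mir126a, at medians of 23500 to 25300 CPM, had a slope of 0.02. Of the 5 neural and endocrine precursors 4 had slopes below 0, and 2 did without the 3 libraries; Mir383 had 0.83 ± 0.36 (adjusted p = 0.217).

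**Figure D4:**
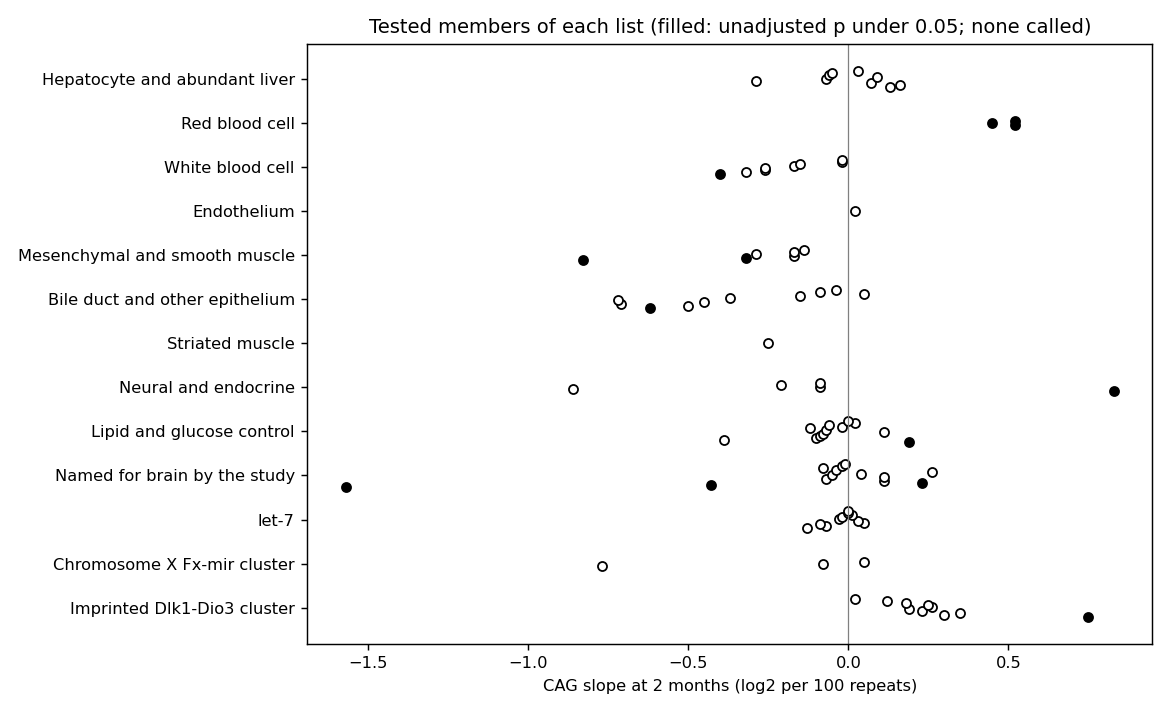
CAG slope at 2 months (log2 per 100 repeats, horizontal axis) of every tested member of the 13 lists, 1 point each; filled points had an unadjusted p under 0.05 and none was called. The 3 red blood cell points lie between 0.45 and 0.52, and all 8 white blood cell points lie below 0.

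The same slopes were fitted at older ages. Expanded livers at 6 months (n = 40) gave 1 called slope of 305 (0.328%), that of Mir26a-1 (0.69 ± 0.15, adjusted p = 0.0101), with 48 at an unadjusted p under 0.05 (15.7%), and at 10 months (n = 39) edgeR called 0 of 301 (0%), with 15 at an unadjusted p under 0.05 (4.98%). Mir27b had slopes of 0.19 ± 0.05, -0.12 ± 0.07 and -0.24 ± 0.07 at 2, 6 and 10 months. Its slope was lower at 10 than at 2 months by -0.39 ± 0.08 (adjusted p = 0.0011), and that of Mir5126 by -1.48 ± 0.37 (adjusted p = 0.0304). These were the 2 calls of 330 between 2 and 10 months (0.606%), and without the batch terms neither was called (adjusted p = 0.238 and 0.188). Between 2 and 6 months 5 of 329 were called (1.52%), 4 of them with a slope higher at 6 months. Mir26a-1 differed by 0.83 ± 0.19 (adjusted p = 0.0104), Mir224 by 1.56 ± 0.37 (adjusted p = 0.0104) and Mir125a by 0.69 ± 0.18 (adjusted p = 0.0251). With RLE factors 4 were called, 2 higher and 2 lower, with Mir27b added and both Mir125a (adjusted p = 0.0565) and Mir145a lost.

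The Mir10b medians were not in the order of repeat length at the older ages either. At 6 months its medians were 888, 635, 959, 114 and 643 CPM from Q80 to Q175. The 8 Q140 livers, at 49 to 209 CPM, were below every liver of the other 4 expanded alleles. The 8 WT livers of that age ran from 1520 to 4420 CPM. Their column names have another form than those of all heterozygotes of that age, and the paper lists WT liver at 2 and 10 months only. Genotype and batch therefore cannot be told apart between WT and heterozygous livers at 6 months. At 10 months the Mir10b medians were 351, 679, 1520, 1150 and 719 CPM, with single livers up to 11700. Its slopes were -1.57 ± 0.43 at 2 months (adjusted p = 0.0676), -1.13 ± 0.47 at 6 months (adjusted p = 0.205) and 0.28 ± 0.76 at 10 months (adjusted p = 0.949). The allele with the lowest median was Q175 at 2 months, Q140 at 6 months and Q80 at 10 months. Each slope was adjusted for the L codes of its own age, or at 6 months for an LB or V code in the column names. The meaning of that code is not spelled out. Among the expanded alleles at 6 months, V occurred in Q80, Q140 and Q175 and not in Q92 or Q111. The part of batch in the differences between ages was not tested further.

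**Figure D5:**
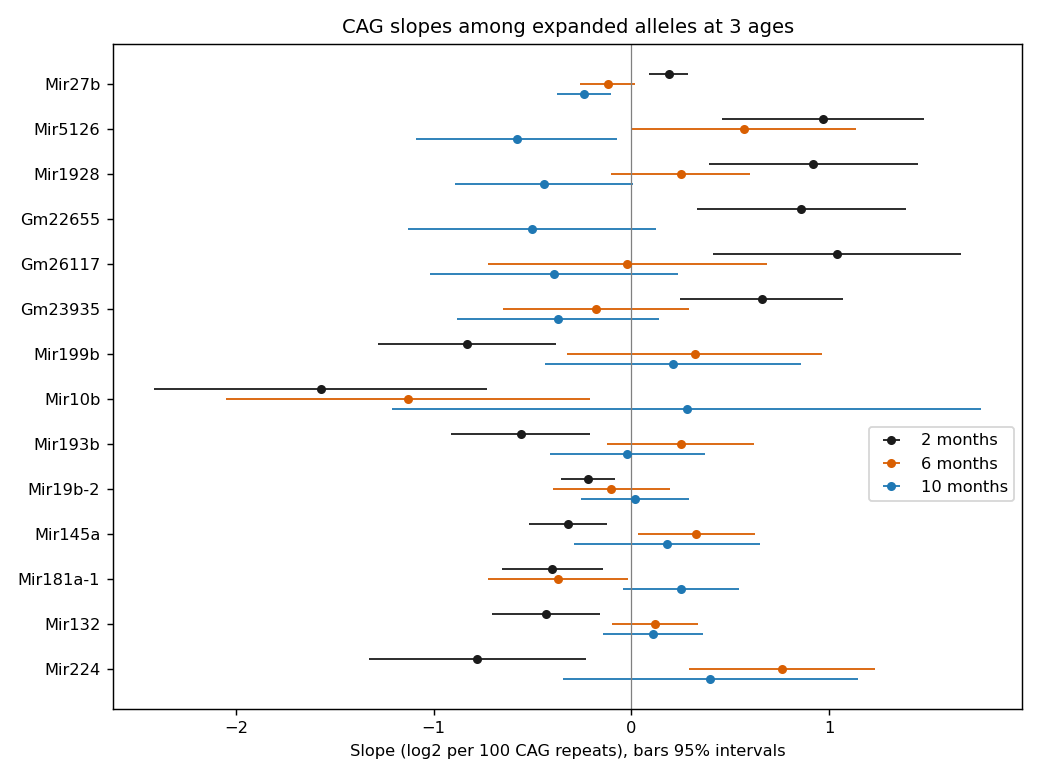
CAG slope (log2 per 100 repeats, horizontal axis) among expanded alleles at 2, 6 and 10 months for the precursors with the 8 smallest p in each direction at 2 months; points are fitted slopes and bars 95% intervals, and Gm22655 was below the filter at 6 months. Mir27b goes from 0.19 at 2 months to -0.24 at 10 months, and Mir224 from -0.78 at 2 months to 0.76 at 6 months.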

How the data were processed

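Small RNA of liver was sequenced by the authors with strand-specific, single-end reads of 36 bases. By the paper, clipped reads were aligned to mm10 with STAR at default settings and counted per gene with HTSeq. CASAVA 1.8.2 is named in the submitters' processing notes, and other versions are not given in the sources used here. The deposited table holds estimated counts for 1626 precursors, of which 49.7% of values above 0 were whole (tolerance 1e-06), so counts were rounded. How values that are not whole came from HTSeq, or whether another counter gave them, is not stated. An FPKM table was not used. Symbols came from GENCODE M21 for 1228 precursors and 398 were not matched.

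Of the 40 libraries, precursors with at least 10 counts in at least 7 entered edgeR 4.0.16 (R 4.3.3, TMM, quasi-likelihood F test) with sex and the L code of the column names as covariates; the headers do not say what the code is, and reading it as a sequencing lane would be an inference. The trend used CAG length as a number, and factor tests used the 5 alleles. Calls were at an adjusted p under 0.05, over all precursors tested. For ages, slopes were fitted in 1 model with age-specific sex and batch terms. Slopes within L codes used log2(CPM + 0.5). DESeq2 1.42.0, RLE factors, other filters, terms and libraries left out were alternatives. Scripts were tested on simulated data. CPM in the text is relative to the library total. Counting error is small at these depths for all but the lowest precursors, and precision is limited by the 8 mice per allele. Nothing in the labels gives more than 1 library per mouse.

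Named precursors were the 8 with the smallest p in each direction, as fewer than 16 were called, up to 3 called in each other test, and list members by counts. Mir10a, Mir23b, Mir27a, Mir324, the 8 ordered precursors, the GC medians, the RefSeq shares and the shares of step patterns were chosen after values were seen. How Q175 livers lay against Q80 livers was read for named precursors only, with no share counted over all tested. The members and lists were chosen with earlier results of these data known. Deviations of same-numbered libraries had a median r of 0.0571 (76 pairs, 40.8% over 0.1), and those of other numbers of the same sex -0.0196 (244 pairs, 23% over 0.1); as not every pair was over 0.1, numbers were not taken as pairs.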

Additional observations from a re-analysis of the deposited data

Results flagged for a closer look

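Among 95 groups of 8 livers examined (named precursors and total counts by allele), 14 had 1 library whose gap to the nearest of the other 7, as a share of the group's range, passed Dixon's 95% critical value; chance gives about 1 in 20. The library Q140 F2 was highest for Mir199b (18.4 CPM, next 10.1, gap 0.66 of the range), Mir132 (49.2 CPM, next 31.4, gap 0.68), Mir224 (8.47 CPM, next 4.6, gap 0.55) and Mir31 (787 CPM, next 558, gap 0.62). Q80 F2 was highest for Mir193b (32.4 CPM, next 20.1, gap 0.53), Mir125a (5270 CPM, next 3260, gap 0.68) and Mir10a (61200 CPM, next 38100, gap 0.74). Q80 M2 was highest for Mir199b (18.0 CPM, next 11.7, gap 0.57) and Mir145a (706 CPM, next 529, gap 0.53). The remaining gaps were 0.53 for Gm26117 in Q111 M3 (high), 0.57 for Mir10b in Q111 F2 (low, 496 CPM against 854), 0.68 for Mir145a in Q175 F3 (low, 272 against 375 CPM), 0.54 for Mir132 in Q175 F4 (high) and 0.59 for Mir224 in Q111 F1 (high).

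Slopes that differed between ages by a test of the difference were those of Mir27b (-0.39) and Mir5126 (-1.48) at 10 minus 2 months. At 6 minus 2 months they were Mir26a-1 (0.83), Mir224 (1.56), Mir125a (0.69), Mir145a (0.69) and Mir5112 (-3.75). Mir145a was not called with RLE factors (adjusted p = 0.062), DESeq2 (0.0508) or without the L code (0.0796), nor Mir5112 with DESeq2 (0.215) or without the L code (0.312). Mir145a, a smooth muscle and pericyte microRNA, had a slope of -0.32 ± 0.10 at 2 months and 0.33 ± 0.15 at 6 months. Mir5112 was near 0: at 2 months 3 of 8 Q80 and 2 of 8 Q175 livers had no count and the highest level was 5.23 CPM, and at 6 months all 8 Q140 and all 8 Q175 livers had none, so its fitted difference depends on the prior count. Mir26a-1 at 6 months had medians of 695, 700, 610, 734 and 1150 CPM from Q80 to Q175.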

How the results depend on the processing

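The trend count of 0 was 0 with RLE factors, without the filter (0 of 1211), with 10 counts in 20 libraries, without the term for the L code, with Q80 M1 left out or entered as female, with robust estimation, a term for the origin of Q140 and Q175, without Q175 or the L1 libraries, and with all 56 livers of 2 months. It was 6 with DESeq2, 5 with ranks 1 to 5 and 2 without Q80. The term for origin turned the slope of Gm23935, Gm24270 and Gm24245 to -0.08; no other named slope changed sign. The cause of these shifts was not tested.

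Counts elsewhere moved as follows. DESeq2 gave 19 for any difference, 2 for Q92 to Q111, 11 at 10 minus 2 months and 23 for Q175 minus Q80. Without the low-count filter 1211 precursors were tested at 2 months, and Mir31 was not called in any test. The counts of these 1211 were 53 for any difference, 36 for departure, 18, 12, 16 and 7 for the 4 steps and 32 for Q175 minus Q80. Between ages they were 1 of 1313 at 10 minus 2 months and 0 of 1322 at 6 minus 2 months (edgeR, 182 at an unadjusted p under 0.05). Without the L code they were 1, 1, 1 and 0 for any difference, departure and the first 2 steps, 1 for Q140 to Q175 (Mir10b), 1 by sex, 0 at 10 minus 2 months (40 at an unadjusted p under 0.05), 2 at 6 minus 2 months and 1 for Q175 minus Q80. With the replicate block they were 1 for any difference (Mir10b), 0 for departure (adjusted p = 0.0549 for Mir10b and Mir31), 0 for Q92 to Q111 and 1 for Q175 minus Q80; the numbers are shared labels only. Q175 minus Q80 was 2 without Q80 M1. Without Q80 F2, Q80 M2 and Q140 F2 (chosen after seeing the data), departure was 1, Q92 to Q111 was 0, 6 minus 2 months was 3 and Q175 minus Q80 was 1.

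Leaving out 1 library gave 0 to 21 calls for the trend, 1 to 14 for any difference (14 without Q80 M4, 10 without Q92 M1, 5 without Q111 M3, 1 without Q80 F1), 1 to 2 for departure (1 without Q80 F1, Q92 F1 or Q92 M1), 1 to 4 for Q80 to Q92 (4 without Q92 F1, 1 without Q80 F1), 0 to 2 for Q92 to Q111 (moved in 19 of 40), 0 to 0 for Q111 to Q140, 0 to 1 for Q140 to Q175 (1 without Q140 F1) and 1 to 24 for Q175 minus Q80. Mir10b kept its calls for any difference, departure, Q80 to Q92 and Q175 minus Q80 in all 40. The total count against CAG length had r = -0.36 without Q80 M1 (n = 39, permutation p = 0.0243). Depth limits precursors at low counts, such as Mir224 (2 to 30 per library) and Gm22655 (6 to 36).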
